A study of Mus musculus with 12 samples.

Results

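The 41 genes described here encode enzymes and regulators of the antioxidant defence, most of them targets of Nrf2, and were followed across 12 RNA-seq libraries of mouse forebrain neural stem cells (NSCs). They were taken from a list of gene symbols that was chosen with earlier results of these data known. All 41 matched 1 of the 45792 genes of the deposited files and passed the filter on low counts that left 15706 genes for testing. The libraries came from 4 cultures of WT NSCs (C57BL/6J), 4 of vehicle-treated Ncf1-/- NSCs and 4 of Igfbp2-treated Ncf1-/- NSCs, each grown from a pup of 1 to 2 days per the study's methods. Both genotypes were grown in the same serum-free medium with EGF, FGF, insulin, transferrin, selenite and B-27, so that every group received selenium, which glutathione peroxidases and thioredoxin reductases carry, and the antioxidants of that supplement. The Ncf1-/- mice, in which the gene for the p47phox subunit of the NADPH oxidase is disrupted, came from a separate colony backcrossed to C57BL/6J. Recombinant mouse Igfbp2, an insulin-like growth factor binding protein, was added 48 h after plating at 100 ng/ml per the labels, while the study's methods give a lower dose, and RNA was taken 48 h later. The labels list no treatment for the WT cultures and for the Ncf1-/- cultures called vehicle-treated here, and the word vehicle comes from the study's methods. Expected counts, which estimate how many reads came from each gene, summed to between 18201622 and 34086554 per library.

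Nrf2, the product of Nfe2l2, is a transcription factor that is held in the cytoplasm and sent for degradation by Keap1, a sensor whose cysteines react with oxidants and electrophiles. When Keap1 is modified, Nrf2 enters the nucleus, pairs with a small Maf protein and binds the antioxidant response element of genes for glutathione synthesis, peroxide reduction, quinone and haem metabolism and NADPH supply. Glutathione and thioredoxin then pass electrons from NADPH to peroxiredoxins, glutathione peroxidases and glutaredoxins, which reduce peroxides and oxidized thiols. The comparison between genotypes asked how these genes differ where a source of superoxide is disrupted, and the comparison between treatments asked how they differ after Igfbp2 was added.

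Libraries that stood apart, or went against the design, have to be given first. The 4 Y-linked genes examined (Ddx3y, Eif2s3y, Kdm5d and Uty) summed to 105 to 116 CPM, counts scaled to library totals with TMM factors, in the vehicle-treated Ncf1-/- libraries and to 7.79 to 9.15 CPM in the Igfbp2-treated ones. Xist, the RNA of the inactive X chromosome, was at 72.3 to 87.8 CPM and at 166 to 275 CPM in those groups. The study describes the treated and untreated Ncf1-/- cultures as pairs from the same animals, yet all 4 pairs differed in these genes, so that Igfbp2 and the sex-linked difference cannot be told apart in that comparison. Among the WT libraries, 9 to 11 had 107 to 118 CPM of the Y-linked genes and library 12 had 6.47 CPM, with Xist at 291 CPM in library 12 and 3.88 to 5.21 CPM in the others. The vehicle-treated Ncf1-/- libraries thus had Y-linked levels close to those of WT libraries 9 to 11 together with higher Xist. Whether each of these Ncf1-/- libraries held cells of 1 pup was not tested, so SEs and p-values may not measure spread between animals. A second sample sheet of the study lists library 12 as an apocynin-treated culture, while its label gives WT without treatment, and counts are therefore also given without it. Ncf1 itself, at most 7 counts per library, was too low in all 3 groups to check the genotype.

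**Figure D1:**
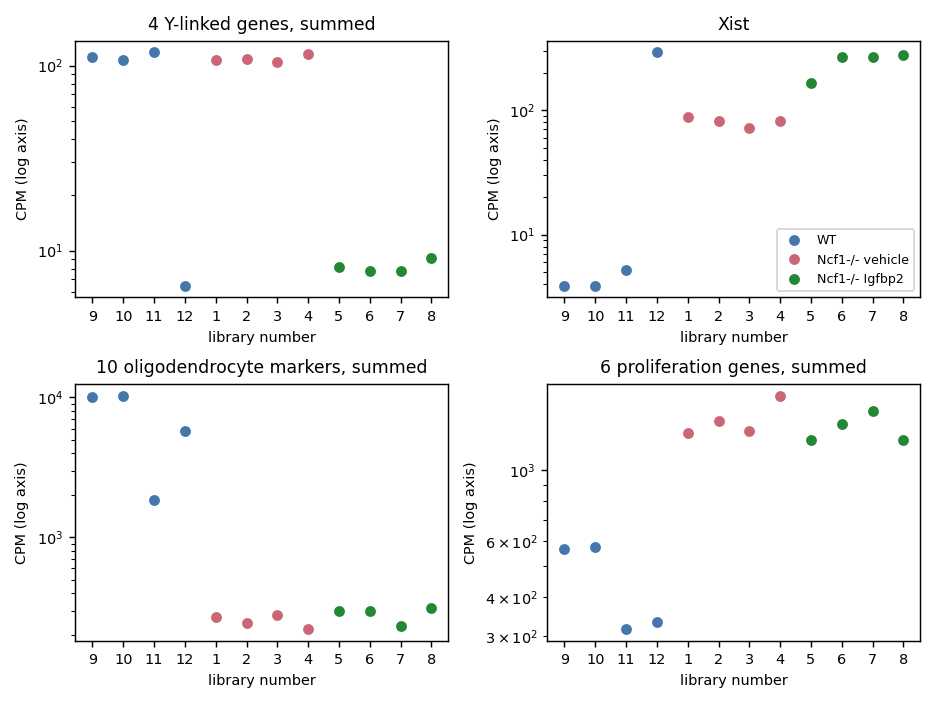
Summed CPM of Y-linked genes, Xist, oligodendrocyte markers and proliferation genes in each of the 12 libraries, on log axes, with colours for the 3 groups. The Igfbp2-treated libraries and WT library 12 lie low for the Y-linked genes, and the WT libraries lie above all Ncf1-/- libraries for the oligodendrocyte markers and below them for the proliferation genes.

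The cultures also differed in the cell types that their markers stand for. The 10 oligodendrocyte markers summed to 1849 to 10315 CPM in WT, lowest in library 11, and to 222 to 314 CPM over both Ncf1-/- groups, where 1 of the 10 had at most 3 counts in each library. Mbp, a myelin gene, was at 327 to 3885 CPM in WT and 2.37 to 3.4 CPM in vehicle-treated Ncf1-/- NSCs. The 8 astrocyte markers, led by Gfap, summed to 7359 to 13139 CPM in WT and 3246 to 3799.5 CPM in vehicle-treated Ncf1-/- NSCs, and the 6 proliferation genes, led by Top2a, to 317 to 573 and 1310 to 1721 CPM. The 8 neural stem cell markers summed to 2456 to 7969.6 CPM in WT, highest in library 11, and to 7642 to 8231 CPM in vehicle-treated Ncf1-/- NSCs. That sum was led by Vim, with medians of 1096 and 4000 CPM, whereas 5 of the 8 stem cell markers were called lower and 2 higher between these groups. Among all genes tested, 28.2% were called lower and 28.9% higher between them. Oligodendrocyte precursor markers summed to 2636 to 4072 CPM in WT and 1985 to 2149 CPM in vehicle-treated Ncf1-/- NSCs, and neuron markers, of which 6 of 8 were called lower, to 598 to 771 and 483 to 547 CPM. Microglial markers summed to at most 2.12 CPM and erythroid markers to at most 0.519 CPM in any library. In such bulk RNA, fewer cells of a type and less RNA per cell cannot be told apart, and the part of these markers in the genotype differences below was not tested. Between the treatments the summed oligodendrocyte and proliferation markers overlapped, whereas the mesenchymal markers, 7 genes led by Acta2, summed to 23.4 to 26.8 CPM with Igfbp2 and 10.8 to 14 CPM without, and 3 of the 5 that could be tested were called higher. In WT the mesenchymal markers summed to 9.87 to 24.2 CPM. The neuron markers also separated between the treatments, at 432 to 459.6 CPM with Igfbp2 and 483 to 547 CPM without, and 2 of 8 were called lower. Among all genes tested, 14.2% were called higher and 10.7% lower between the treatments. The part of these markers in the treatment differences was not tested.

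Promoters of the members are shown because Nrf2 acts through the antioxidant response element, whose core is TGACNNNGC or TGAGNNNGC. The core was searched on both strands in the RefSeq promoter windows of GRCm38.p6, 250 bases before to 50 bases after a start site, which held 49 promoters of 35 members (those of Hmox1, Gclc, Gsr, Gsta4, Prdx6 and Sod3 are not in that table). A core was found in 15 of the 49, or 30.6%, against 27.8% of all 32851 promoters of the same length. TGACNNNGC alone was in 22.4% of the member promoters and 12.4% of all promoters, and TGAGNNNGC alone in 14.3% and 17.6%. Shown are 4 of these promoters, 5′ to 3′ on the gene's strand, for genes whose mRNA was higher with Igfbp2 below, with the core in capitals on whichever strand it was read. The Gclm window lies at chr3:122245307-122245606 (plus strand), that of Slc7a11 at chr3:50443564-50443863 (minus strand), that of Srxn1 at chr2:152105274-152105573 (plus strand) and that of G6pdx at chrX:74428831-74429130 (minus strand).
Gclm: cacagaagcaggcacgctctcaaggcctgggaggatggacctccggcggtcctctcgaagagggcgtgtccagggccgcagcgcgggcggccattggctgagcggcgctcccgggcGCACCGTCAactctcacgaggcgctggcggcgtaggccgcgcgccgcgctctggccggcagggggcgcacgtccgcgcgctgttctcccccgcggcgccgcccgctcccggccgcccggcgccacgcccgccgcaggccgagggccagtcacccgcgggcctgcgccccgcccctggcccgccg
Slc7a11: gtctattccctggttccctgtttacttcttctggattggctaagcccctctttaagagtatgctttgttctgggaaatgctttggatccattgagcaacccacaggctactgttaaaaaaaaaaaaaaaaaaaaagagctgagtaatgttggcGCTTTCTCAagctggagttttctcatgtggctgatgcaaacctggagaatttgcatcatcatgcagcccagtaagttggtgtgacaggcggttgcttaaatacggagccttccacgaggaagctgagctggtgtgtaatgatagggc
Srxn1: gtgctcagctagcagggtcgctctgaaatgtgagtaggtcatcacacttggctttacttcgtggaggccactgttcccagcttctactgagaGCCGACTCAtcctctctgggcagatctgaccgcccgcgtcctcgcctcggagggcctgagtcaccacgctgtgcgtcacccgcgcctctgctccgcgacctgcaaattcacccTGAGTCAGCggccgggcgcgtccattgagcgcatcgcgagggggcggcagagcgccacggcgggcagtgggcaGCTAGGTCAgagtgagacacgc
G6pdx: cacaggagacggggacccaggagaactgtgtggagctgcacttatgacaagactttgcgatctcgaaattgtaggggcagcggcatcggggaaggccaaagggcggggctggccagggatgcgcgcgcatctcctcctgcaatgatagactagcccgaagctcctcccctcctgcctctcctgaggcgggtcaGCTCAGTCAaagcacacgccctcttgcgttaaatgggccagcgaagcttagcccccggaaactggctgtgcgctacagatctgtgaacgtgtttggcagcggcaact
With the start site counted as position 0, the core of Gclm began at -134, that of Slc7a11 at -97 and that of G6pdx at -57, while the 3 cores of Srxn1 began at -158, -45 and 28. In the promoters of Keap1, Gstm1, Glrx, Nqo1, Txn1 and Gpx7 these letters were not in the window. Of these genes, Keap1, Gstm1 and Glrx were also called higher with Igfbp2, and Gstm1 had the largest such rise of the members. By gene, counted when any of its promoters held a core, the shares were 42.9% of the 35 members and 30.8% of all genes. Of the 15 members called higher with Igfbp2, 11 were in the table and 8 had a core, and of the 26 not called, 24 were in the table and 7 had one. These are counts without a test, and a match of 9 letters does not show binding.

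Between vehicle-treated Ncf1-/- and WT NSCs, 17 of the 41 genes were called higher and 5 lower (edgeR quasi-likelihood test, Benjamini-Hochberg adjusted p under 0.05 over all genes tested). Of all genes tested, 28.9% were called higher and 28.2% lower in this comparison, so that the members' shares were 41.5% and 12.2%. The rises were led by Sod3, Txn1, Nqo1, Gpx7 and Prdx4, which act on superoxide, disulfides, quinones and peroxides, and the falls were those of Prdx6, Gclc, Cat, Txnrd2 and Glrx2. The median log2 fold change was 0.22 over the members and 0.02 over all genes tested. In 16 members all vehicle-treated Ncf1-/- libraries lay above all WT libraries and in 5 below, against 26.2% and 25.1% of all genes tested. On library totals 25 were called higher and 3 lower, against 38.4% and 20.1% of all genes, and on TPM rescaled without structural RNAs 13 and 7, against 21.7% and 31.5%. Without WT library 12, 14 members were called higher and 6 lower, against 26.8% and 28.5% of all genes. Without WT library 11 the counts were 17 and 5, against 30.8% and 28.3%.

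Between Igfbp2-treated and vehicle-treated Ncf1-/- NSCs, 15 of the 41 genes were called higher and 0 lower, whereas on library totals without TMM factors 6 were higher and 5 lower, and on log2(TPM + 1) 2 were higher and 8 lower. Of all genes tested, 14.2% were called higher and 10.7% lower with TMM, against 36.6% and 0% of the members. The shares over all genes moved with the scaling, to 4.13% higher and 33.5% lower on library totals and to 1.0% and 38.6% on log2(TPM + 1). The 5 largest rises were those of Gstm1, Slc7a11, Srxn1, Hmox1 and Me1, which serve conjugation, cystine import, sulfiredoxin repair, haem breakdown and NADPH supply. At an unadjusted p under 0.05, 22 members were higher and 0 lower in edgeR, and DESeq2 called 16 members higher and 0 lower. All Igfbp2-treated libraries lay above all vehicle-treated ones in 18 members and below in 0, against 19.3% and 14.7% of all genes tested. The count of 15 was 9 when vehicle-treated library 2, Igfbp2-treated library 5 or Igfbp2-treated library 8 was left out. Of all genes, 7.97%, 9.83% and 8.62% were called higher in these fits. Those 9 members (Hmox1, Gclc, Slc7a11, Gsr, Gstm1, Gstp1, Srxn1, G6pdx and Me1) were called in each of the 12 fits that left out a library. In a fit of the Ncf1-/- libraries alone, 18 members were called higher and 0 lower, against 19.5% and 18.3% of all genes. With the culture pair as a block, 18 were called higher and 0 lower, against 19.0% and 17.0%. Beyond the 15, the blocked fit called Gpx4 (0.30, edgeR adjusted p = 0.0402), Gpx7 (0.45, edgeR adjusted p = 0.0133) and Gstm7 (0.29, edgeR adjusted p = 0.0415). WT library 12 belongs to neither group but shares the fit. Without it, 12 members were called higher and 0 lower, against 13.4% and 13.1% of all genes. The median of all genes tested was then 0 in place of 0.04.

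Signs in this comparison depended on the scaling, and the distribution of all genes moved with it. The median log2 fold change of all genes tested was 0.04 with TMM, 0.03 with the size factors of DESeq2, -0.23 on library totals, -0.3 on log2(TPM + 1), -0.42 on log2(TPM + 0.1) and -0.1 on log2(TPM + 1) rescaled without 5 structural RNAs (Rn7s1, Rn7s2, Rn7sk, Rpph1 and Rmrp). Those RNAs held 56% to 60.3% of TPM in the vehicle-treated and 62.1% to 72.3% in the Igfbp2-treated libraries. Relative to that median, the median member was higher by 0.22 with TMM, by 0.22 with DESeq2, by 0.22 on library totals, by 0.09 on log2(TPM + 1), by 0.2 on log2(TPM + 0.1) and by 0.2 on rescaled TPM. The number of the 41 above the median of all genes was between 26 and 35. Gstm1 and Srxn1 were called higher under all 6 scalings, and Hmox1, Slc7a11, G6pdx and Me1 also on library totals and rescaled TPM. The other 9 of the 15 (Nfe2l2, Keap1, Gclc, Gclm, Gsr, Gsta4, Gstp1, Sod1 and Glrx) were called higher neither on library totals nor on any TPM scale. Changes between the treatments are therefore relative to the other genes of the same library, not absolute amounts.

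**Figure D2:**
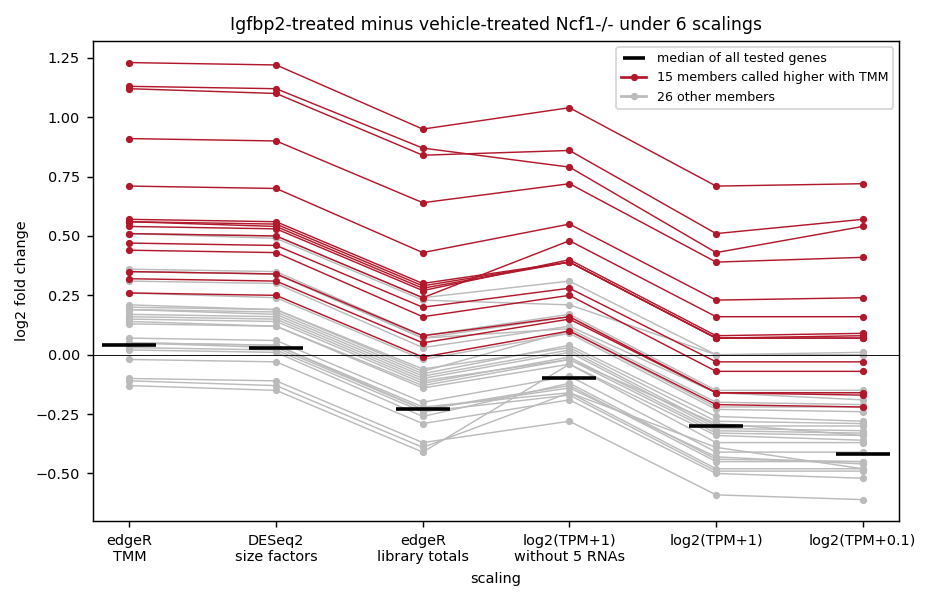
Log2 fold changes between Igfbp2-treated and vehicle-treated Ncf1-/- NSCs (vertical axis) for the 41 genes under 6 scalings (horizontal axis), with the 15 genes called higher under TMM in red, the other 26 in grey and the median of all genes tested as a black bar. Lines and black bars shift together from scaling to scaling, and several red lines cross 0 on the TPM scales.

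With Igfbp2-treated Ncf1-/- NSCs set against WT, 29 members were called higher and 4 lower, against 31.6% and 30.8% of all genes tested. Their median log2 fold change was 0.59, with -0.01 over all genes. In 24 members all Igfbp2-treated libraries lay above all WT libraries and in 3 below, against 27.8% and 26.6% of all genes tested. On log2(TPM + 1), 13 were called higher and 7 lower, against 11.9% and 42.6% of all genes. On log2(TPM + 0.1) the counts were 11 and 5, against 12.8% and 44.5%, and on rescaled TPM 21 and 6, against 19.5% and 43.4%. By the test that the authors used on TPM they were 7 and 4, against 3.46% and 16.6% of all genes, and without WT library 12 they were 28 and 5, against 28.6% and 33.7%. The largest rises were those of Sod3, Txn1, Slc7a11, Nqo1 and Gpx7, and the 4 falls were those of Prdx6, Txnrd2, Glrx2 and Cat. Each pair of the 3 comparisons shares a group of libraries, so that their values are given side by side and are not independent of each other.

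**Figure D3:**
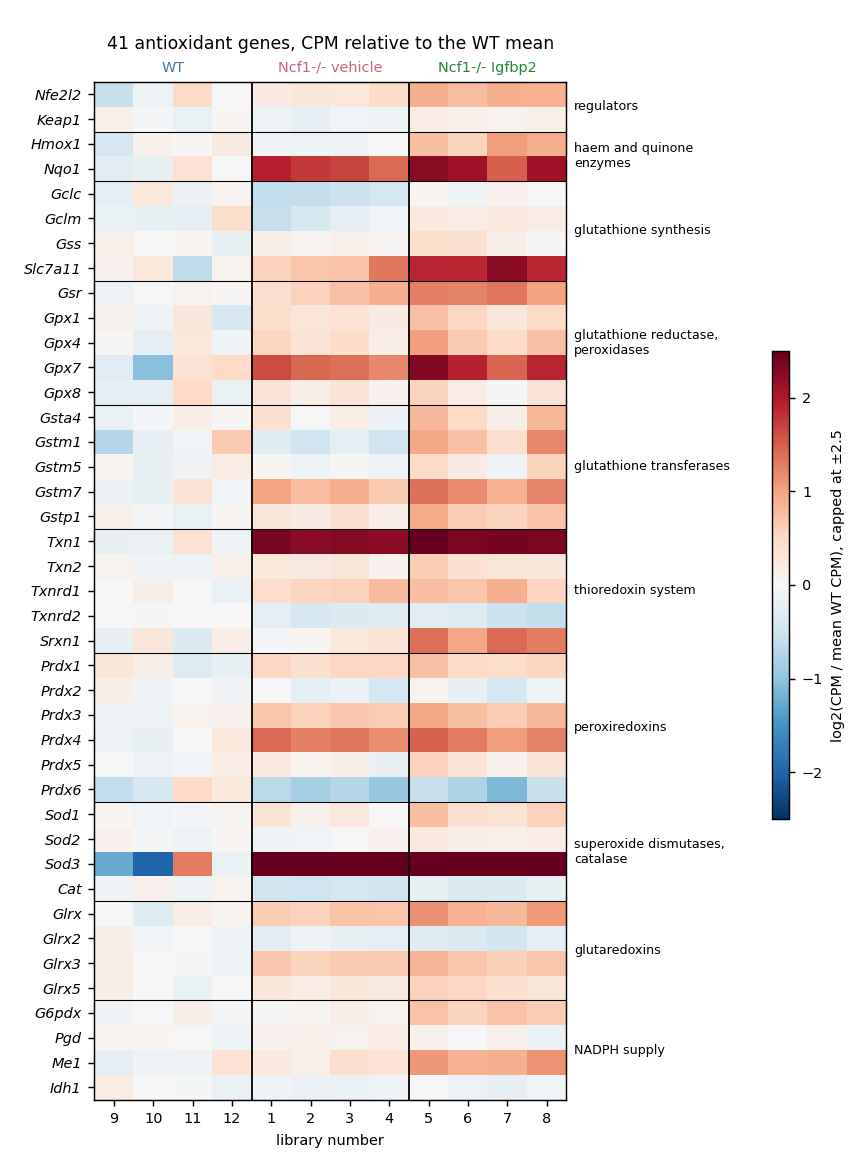
Level of each of the 41 genes (rows, in blocks by role) in each library (columns), as log2 of CPM over the mean CPM of the 4 WT libraries, capped at 2.5. Txn1, Nqo1 and Sod3 are high in all 8 Ncf1-/- libraries, Slc7a11, Srxn1 and Hmox1 are highest in the Igfbp2-treated ones, and Prdx6 and Cat are low in the Ncf1-/- libraries.

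Per transcript length, the antioxidant mRNAs covered a wide range. By mean TPM, which corrects for length, the highest in WT were Prdx6 at 425 ± 193 and Prdx2 at 303 ± 27.4 (SD, n = 4), both peroxiredoxins, and the lowest were Slc7a11 at 1.52 ± 0.159 and Sod3 at 0.0925 ± 0.102. The spread of Prdx6 was wider than its distance to Prdx2, so that their order is not set. In vehicle-treated Ncf1-/- NSCs the highest were Txn1 at 275 ± 19.4, Prdx2 at 272 ± 6.66 and Prdx6 at 246 ± 8.74 TPM, of which the first 2 lay within their spread. In Igfbp2-treated NSCs, Txn1 at 215 ± 34.4, Gstm1 at 201 ± 15.6, Prdx2 at 194 ± 22.5, Sod1 at 187 ± 16 and Prdx6 at 180.2 ± 12.9 TPM overlapped in their spread. The 41 genes together held 0.231% ± 0.0429 of TPM in WT, 0.262% ± 0.015 in vehicle-treated and 0.227% ± 0.0209 in Igfbp2-treated Ncf1-/- NSCs. Without the 5 structural RNAs the shares were 0.632% ± 0.0578, 0.64% ± 0.0143 and 0.693% ± 0.0463, and of expected counts they were 0.365% ± 0.0349, 0.445% ± 0.00923 and 0.452% ± 0.0259, so that the order of the groups depended on the measure.

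Of the regulators, Nfe2l2 (chr2:75675513-75704641, minus strand, GRCm38) was at 45.8, 62.2, 94.3 and 68.1 CPM in WT libraries 9 to 12, 77.5, 82.3, 80.8 and 92.3 CPM in vehicle-treated Ncf1-/- libraries 1 to 4 and 126, 115, 126 and 123 CPM in Igfbp2-treated libraries 5 to 8. The treated libraries lay above all others, and WT spanned the vehicle-treated range. Nfe2l2 was higher with Igfbp2 by a log2 fold change of 0.56 ± 0.16, edgeR adjusted p = 0.025, a call that 6 of the 12 fits with a library left out did not make. That call was also lost on library totals (0.29) and log2(TPM + 1) (0.07). The genotype difference of Nfe2l2, 0.30 ± 0.16, edgeR adjusted p = 0.132, missed the threshold. Keap1 (chr9:21229730-21239361, minus strand), the inhibitor, was at 65.4, 58.9, 53.5 and 62.4 CPM in WT, 55.2, 52.1, 57.4 and 55.1 CPM in vehicle-treated and 67.9, 65.7, 64 and 65.6 CPM in Igfbp2-treated libraries. Its values lay between 52.1 and 67.9 CPM throughout, with the vehicle-treated libraries below the treated ones and WT overlapping both. Keap1 was called higher with Igfbp2 (log2 fold change 0.26 ± 0.07, edgeR adjusted p = 0.0218), a call lost in 9 of the 12 fits with a library left out, and was at -0.01 on library totals and -0.21 on log2(TPM + 1).

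Hmox1 and Nqo1, the haem and quinone enzymes that often serve as readouts of Nrf2, were both called higher in Igfbp2-treated Ncf1-/- cultures against WT. The log2 fold changes were 0.83 ± 0.13, edgeR adjusted p = 0.000103, for Hmox1 and 2.0 ± 0.19, edgeR adjusted p = 1.85e-06, for Nqo1. Of the other comparisons, Hmox1 was called between the treatments and Nqo1 between the genotypes. Hmox1 (chr8:75093621-75100589, plus strand), haem oxygenase, was at 33.8, 48.2, 45.7 and 52.2 CPM in WT, 42, 41.8, 42 and 44.5 CPM in vehicle-treated and 75.3, 66.6, 93 and 84.8 CPM in Igfbp2-treated libraries. The treated libraries were above all others and the vehicle-treated ones within the WT range. Hmox1 was 1.88-fold higher with Igfbp2 (log2 fold change 0.91 ± 0.13, edgeR adjusted p = 0.000943), with a value above 0 under every scaling but no call on the log2 TPM scales that were not rescaled. The genotype difference of Hmox1 was -0.08 ± 0.13, edgeR adjusted p = 0.627. Nqo1 (chr8:107388225-107403206, minus strand), a quinone reductase, was at 3, 3.18, 4.62 and 3.62 CPM in WT, 13.8, 12.3, 11.6 and 9.63 CPM in vehicle-treated and 17.2, 15.6, 10.2 and 15.6 CPM in Igfbp2-treated libraries. All 8 Ncf1-/- libraries lay above WT, and the treated and vehicle-treated ranges overlapped. Nqo1 was 3.24-fold higher in vehicle-treated Ncf1-/- cultures than in WT (log2 fold change 1.70 ± 0.19, edgeR adjusted p = 7.01e-06), a call made under all 20 alternatives, while the treatment difference was 0.31 ± 0.18, edgeR adjusted p = 0.212.

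Glutathione synthesis starts with cystine import and is limited by glutamate-cysteine ligase. Slc7a11 (chr3:49892526-50443614, minus strand), the cystine transporter xCT, was at 14.4, 16, 8.53 and 14.2 CPM in WT, 19.7, 21.5, 21.9 and 33.3 CPM in vehicle-treated and 50, 49.1, 63.7 and 49.2 CPM in Igfbp2-treated libraries. The 3 groups did not overlap and stood in that order. Slc7a11 was 1.83-fold higher in vehicle-treated Ncf1-/- cultures than in WT (log2 fold change 0.87 ± 0.20, edgeR adjusted p = 0.00227) and 2.2-fold higher again with Igfbp2 (1.13 ± 0.20, edgeR adjusted p = 0.00233). Slc3a2, the chain that carries xCT to the membrane, belongs to the wider list given below.

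Gclc (chr9:77754535-77794485, plus strand), the catalytic subunit of the ligase, was at 55.6, 78.6, 59.3 and 68.8 CPM in WT, 42.7, 43.6, 45.1 and 48.3 CPM in vehicle-treated and 67.8, 60.6, 70.3 and 65.5 CPM in Igfbp2-treated libraries. In CPM the vehicle-treated libraries lay below all others, and the treated ones were within the WT range. Gclc fell between WT and vehicle-treated Ncf1-/- NSCs (log2 fold change -0.54 ± 0.10, edgeR adjusted p = 0.000541) and was higher with Igfbp2 (0.56 ± 0.10, edgeR adjusted p = 0.00311), and the difference between Igfbp2-treated Ncf1-/- and WT NSCs was 0.01 ± 0.10, edgeR adjusted p = 0.924. These values depended on the scaling, since the treatment difference was 0.28 on library totals and 0.07 on log2(TPM + 1), neither called, and the difference from WT was -0.38 on log2(TPM + 1). Mean TPM of Gclc was 14.6 ± 2.62 in WT, 10.3 ± 1.6 in vehicle-treated and 11 ± 2.19 in Igfbp2-treated NSCs (SD, n = 4). Gclm (chr3:122245557-122270732, plus strand), the modifier subunit whose promoter is printed above, was at 57.1, 56.3, 55.3 and 86.6 CPM in WT, with library 12 apart, 43.1, 48.6, 55.5 and 60.7 CPM in vehicle-treated and 75.2, 72.9, 75.7 and 72.5 CPM in Igfbp2-treated libraries. Its treated libraries were above the vehicle-treated ones and overlapped WT only through library 12. The treatment difference of Gclm was 0.51 ± 0.14, edgeR adjusted p = 0.0222, a call that 6 of the 12 fits with a library left out did not make, and the genotype difference -0.29 ± 0.14, edgeR adjusted p = 0.0966. Gss, which completes glutathione, was between 11.9 and 18.3 CPM in all libraries and was called in neither of these comparisons.

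Glutathione reductase and the glutathione peroxidases were higher with TMM wherever they were called. Gsr, the reductase, rose from 35.1 ± 2.26 CPM in WT to 56 ± 8.33 CPM in vehicle-treated and 81.7 ± 7.46 CPM in Igfbp2-treated NSCs (SD, n = 4 each). The log2 fold changes were 0.67 ± 0.11, edgeR adjusted p = 0.000148 and 0.54 ± 0.11, edgeR adjusted p = 0.00419, and in CPM the 3 groups did not overlap. The treatment call of Gsr was made by 16 of 21 alternatives, with values down to 0.08. It was lost on library totals, on every TPM scale and under the authors' own test. In TPM the vehicle-treated and Igfbp2-treated libraries overlapped. Gpx7, a peroxidase of the endoplasmic reticulum without selenium, was at 5.05, 2.97, 7.86 and 8.63 CPM in WT, 18.9, 16.5, 16 and 14 CPM in vehicle-treated and 30.6, 23.3, 16.9 and 22.8 CPM in Igfbp2-treated libraries. All Ncf1-/- libraries were above WT for Gpx7, with a genotype log2 fold change of 1.40 ± 0.26, edgeR adjusted p = 0.000531 and a treatment difference of 0.51 ± 0.25, edgeR adjusted p = 0.15. Gpx4, which reduces lipid peroxides, was called higher between the genotypes (0.38 ± 0.13, edgeR adjusted p = 0.0261), a call made by 14 of 20 alternatives. Of the 50-base words of its transcripts, 34.7% also occur in 2 other genes, chiefly the pseudogene Gpx4-ps2, so that its counts may be shared. Gpx1 (0.33 ± 0.13, edgeR adjusted p = 0.0512) and Gpx8 (0.22 ± 0.17, edgeR adjusted p = 0.286) were not called.

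The glutathione transferases, which couple glutathione to electrophiles, were 5 genes of 3 classes. Gstm1 was at 143, 204, 226 and 369 CPM in WT, 191, 167, 202 and 166 CPM in vehicle-treated and 462, 389, 316 and 538 CPM in Igfbp2-treated libraries. The treated libraries were above all vehicle-treated ones, and WT was widely spread, with library 12 highest. Gstm1 was 2.35-fold higher with Igfbp2 (log2 fold change 1.23 ± 0.24, edgeR adjusted p = 0.0041), the largest treatment difference of the 41 members, and its genotype difference was -0.37 ± 0.24, edgeR adjusted p = 0.196, or -0.1 without WT library 12. Gstp1 (0.44 ± 0.09, edgeR adjusted p = 0.00668) and Gsta4 (0.47 ± 0.15, edgeR adjusted p = 0.0371) were also called higher with Igfbp2, but were at -0.07 and -0.03 on log2(TPM + 1), and Gstp1 shares 33.7% of its 50-base words with Gstp2 and a further gene. Gstm7 was higher between the genotypes (0.82 ± 0.13, edgeR adjusted p = 0.000166), as was Gstp1 by a smaller value (0.27 ± 0.09, edgeR adjusted p = 0.0254), a call made by 13 of 20 alternatives. Gstm5 was called in neither comparison. Gstm1 shares 18.9% of its 50-base words with 5 other genes, so that reads could be split among them.

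In the thioredoxin system, which reduces protein disulfides and feeds the peroxiredoxins, the largest difference was that of Txn1. Txn1, cytosolic thioredoxin, was at 57.9, 59.1, 84.8 and 61.8 CPM in WT, 342, 316, 325 and 309.8 CPM in vehicle-treated and 398, 336, 345 and 335 CPM in Igfbp2-treated libraries. Every Ncf1-/- library was above every WT library by a wide gap, and the treated and vehicle-treated libraries overlapped. Txn1 was 4.9-fold higher in vehicle-treated Ncf1-/- cultures than in WT (log2 fold change 2.29 ± 0.12, edgeR adjusted p = 3.81e-08), with values from 2.19 to 2.47 over 20 alternatives, and the treatment difference was 0.13 ± 0.12, edgeR adjusted p = 0.44. Txnrd1 (chr10:82833951-82897712, plus strand), the cytosolic reductase of Txn1, was at 132, 145, 130.3 and 116 CPM in WT, 177, 189, 196 and 226 CPM in vehicle-treated and 221, 210.2, 245 and 191 CPM in Igfbp2-treated libraries. Its Ncf1-/- libraries were all above WT (log2 fold change 0.59 ± 0.10, edgeR adjusted p = 0.000287), and the treated ones overlapped the vehicle-treated ones (0.14 ± 0.10, edgeR adjusted p = 0.346).

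The mitochondrial pair gave smaller values. Txnrd2, the mitochondrial reductase, was at 10.9, 10.7, 11 and 10.9 CPM in WT, 9.31, 8.28, 8.61 and 8.77 CPM in vehicle-treated and 9, 8.69, 7.49 and 7.18 CPM in Igfbp2-treated libraries. Txnrd2 was lower in vehicle-treated Ncf1-/- cultures than in WT (-0.31 ± 0.10, edgeR adjusted p = 0.0132), a call made by 15 of 20 alternatives. Txn2, its substrate, was called higher between the genotypes at the edge of the threshold (0.23 ± 0.09, edgeR adjusted p = 0.0498), and only 4 of 20 alternatives made that call. Srxn1 (chr2:152105516-152111376, plus strand), sulfiredoxin, which repairs overoxidized peroxiredoxins, was at 13.9, 19.1, 12.4 and 17.6 CPM in WT, 15.3, 16.4, 18.8 and 19.7 CPM in vehicle-treated and 41.1, 30.9, 42.3 and 38 CPM in Igfbp2-treated libraries. All treated libraries lay above all others, and WT and vehicle-treated libraries overlapped. Srxn1 was 2.17-fold higher with Igfbp2 (log2 fold change 1.12 ± 0.14, edgeR adjusted p = 0.000734), a call lost under 1 of 21 alternatives, the test that the authors used on TPM, and its genotype difference was 0.16 ± 0.15, edgeR adjusted p = 0.359.

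**Figure D4:**
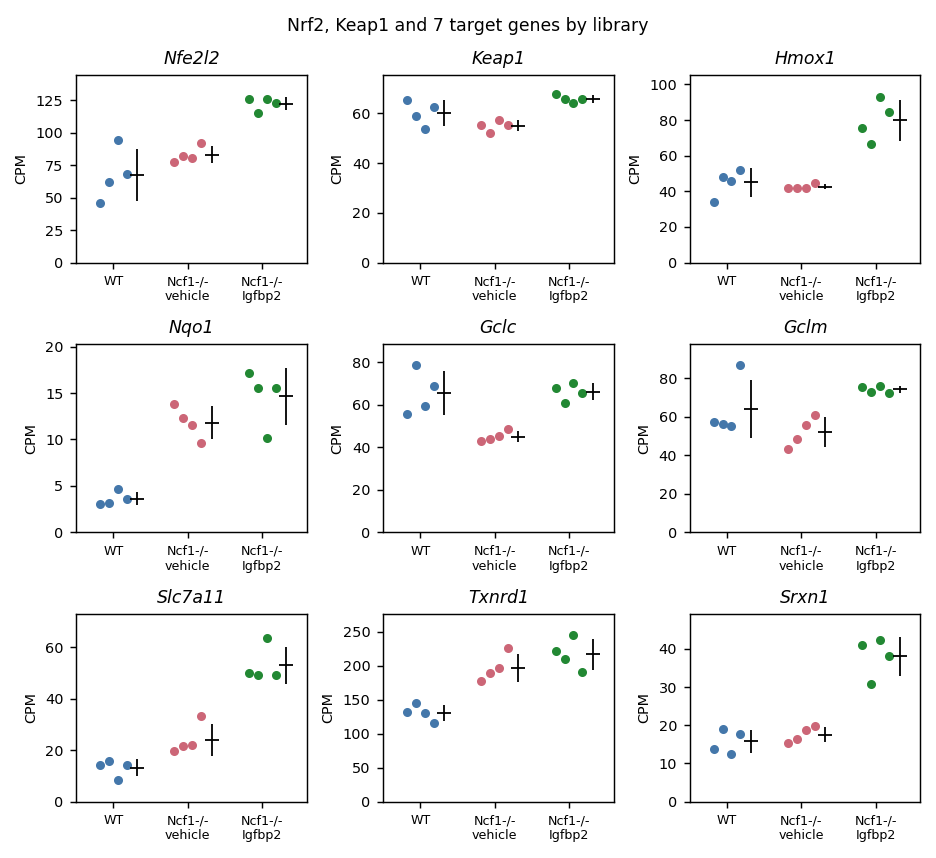
CPM of Nfe2l2, Keap1 and 7 Nrf2 targets in each library (points, coloured by group), with the mean and SD of the 4 libraries of each group as black bars. Hmox1, Slc7a11 and Srxn1 are highest in the Igfbp2-treated libraries, Nqo1 and Txnrd1 are higher in both Ncf1-/- groups than in WT, and Gclc is lowest in the vehicle-treated libraries.

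The peroxiredoxins, thiol peroxidases of the cytosol, mitochondria, endoplasmic reticulum and peroxisomes, differed between the genotypes in both directions and were called in 0 of 6 cases between the treatments, by edgeR and also by DESeq2. Between the treatments edgeR called 14.2% of all genes higher and 10.7% lower, so that few calls among 6 genes would match those shares. At an unadjusted p under 0.05, 1 of the 6 was higher between the treatments. On log2(TPM + 1) Prdx1, Prdx2 and Prdx4 were called lower, as were 38.6% of all genes. Prdx4, of the endoplasmic reticulum, was at 17.5, 16.7, 19.3 and 22.9 CPM in WT, 50.9, 45.6, 48.2 and 42.7 CPM in vehicle-treated and 53, 47.2, 39.6 and 44.9 CPM in Igfbp2-treated libraries, with all Ncf1-/- libraries above WT (genotype log2 fold change 1.29 ± 0.11, edgeR adjusted p = 1.12e-06). Prdx3, of the mitochondria (0.64 ± 0.08, edgeR adjusted p = 3.02e-05), and Prdx1, of the cytosol (0.49 ± 0.13, edgeR adjusted p = 0.00479), were also higher. Prdx6, which uses glutathione and is abundant in astrocytes, was at 417, 479, 901 and 764 CPM in WT, 402, 358, 392 and 332 CPM in vehicle-treated and 429.7, 376, 293 and 436 CPM in Igfbp2-treated libraries. WT libraries 11 and 12 were far above the other libraries, and Gfap was at 7590.2 and 6536 CPM in them and at 3667 and 4104 CPM in WT libraries 9 and 10. Prdx6 fell between WT and vehicle-treated Ncf1-/- NSCs (-0.79 ± 0.22, edgeR adjusted p = 0.00711), by 0.57 without WT library 11 and by 0.71 without library 12, and the part of the astrocyte markers in this was not tested. Prdx2 and Prdx5 were not called between the genotypes.

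Among the superoxide dismutases and catalase, Sod3, the extracellular dismutase, was low, with 4, 2, 37 and 7 counts in WT, 68, 60, 64 and 70 counts in vehicle-treated and 83, 57, 67 and 98 counts in Igfbp2-treated libraries. These came to 0.108 to 1.06 CPM in WT and 2.61 to 2.96 CPM in vehicle-treated libraries, and WT library 11 held most of the WT counts. The genotype log2 fold change of Sod3 was 2.52 ± 0.43, edgeR adjusted p = 0.000235, from 0.54 to 3.63 over 20 alternatives, lowest on log2(TPM + 1), and its size is poorly fixed at such counts. Cat, catalase, was at 116, 132, 114 and 131 CPM in WT, 89.6, 87.4, 90.3 and 89.9 CPM in vehicle-treated and 108, 97.5, 97.3 and 109 CPM in Igfbp2-treated libraries. In CPM the vehicle-treated libraries of Cat were lowest, the treated ones lay between, and the groups did not overlap. Mean TPM of Cat was instead lowest with Igfbp2, at 46.6 ± 5.03 in WT, 31.6 ± 1.66 in vehicle-treated and 27.3 ± 3.9 in Igfbp2-treated NSCs (SD). Cat fell between WT and vehicle-treated Ncf1-/- NSCs (-0.46 ± 0.07, edgeR adjusted p = 0.000153), and the treatment difference missed the threshold (0.20 ± 0.07, edgeR adjusted p = 0.0615). Sod1, the cytosolic dismutase, was called higher with Igfbp2 (0.35 ± 0.10, edgeR adjusted p = 0.0258), yet at -0.16 on log2(TPM + 1), and Sod2 of the mitochondria was called in neither comparison.

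The glutaredoxins, which use glutathione to reduce disulfides, had 3 of 4 genes higher and 1 lower between the genotypes, against 28.9% and 28.2% of all genes. Glrx (0.65 ± 0.11, edgeR adjusted p = 0.000202) and Glrx3 (0.63 ± 0.08, edgeR adjusted p = 2.04e-05) were called higher with larger values than Glrx5 (0.25 ± 0.08, edgeR adjusted p = 0.0206), a mitochondrial protein of iron-sulfur cluster assembly. The Glrx5 call was made by 10 of 20 alternatives. Glrx2, also mitochondrial, was at 38.8, 32.9, 34 and 31.8 CPM in WT, 28.8, 31.6, 30.3 and 28.9 CPM in vehicle-treated and 27.7, 26.9, 25 and 29.1 CPM in Igfbp2-treated libraries, with vehicle-treated libraries just below WT. Its fall (-0.20 ± 0.08, edgeR adjusted p = 0.0418) was made by 7 of 20 alternatives and turned to 0.15 on log2(TPM + 1). Glrx alone of the 4 was called higher with Igfbp2 (0.32 ± 0.11, edgeR adjusted p = 0.0419), and was at -0.16 on log2(TPM + 1).

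Of the 4 genes that supply NADPH, 0 were called between the genotypes by edgeR or by DESeq2, and 1 had an unadjusted p under 0.05. By edgeR, 28.9% of all genes were called higher and 28.2% lower in that comparison. Me1, cytosolic malic enzyme, was at 96.2, 106, 104 and 146 CPM in WT, 133, 124, 149 and 145 CPM in vehicle-treated and 239.9, 207, 209 and 245 CPM in Igfbp2-treated libraries, with the treated libraries above all others. Me1 was higher with Igfbp2 (0.71 ± 0.12, edgeR adjusted p = 0.00251), and 28.3% of its 50-base words occur in other genes. G6pdx, which opens the pentose phosphate pathway and whose promoter is printed above, was at 65.1, 67.1, 71.2 and 67.8 CPM in vehicle-treated and 105, 94.5, 104 and 98.4 CPM in Igfbp2-treated libraries, without overlap. G6pdx was called higher with Igfbp2 (0.57 ± 0.07, edgeR adjusted p = 0.000677), and 16.9% of its 50-base words occur in 2 other genes, chiefly Ikbkg, which overlaps it. G6pdx and Prdx4 are the members on the X chromosome, and the part of the sex-linked difference described above in the G6pdx value was not tested. Pgd, the next NADPH step of that pathway, and Idh1 were not called with TMM. On log2(TPM + 1) they were at -0.59 and -0.44 and both were called lower, as were 38.6% of all genes.

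**Figure D5:**
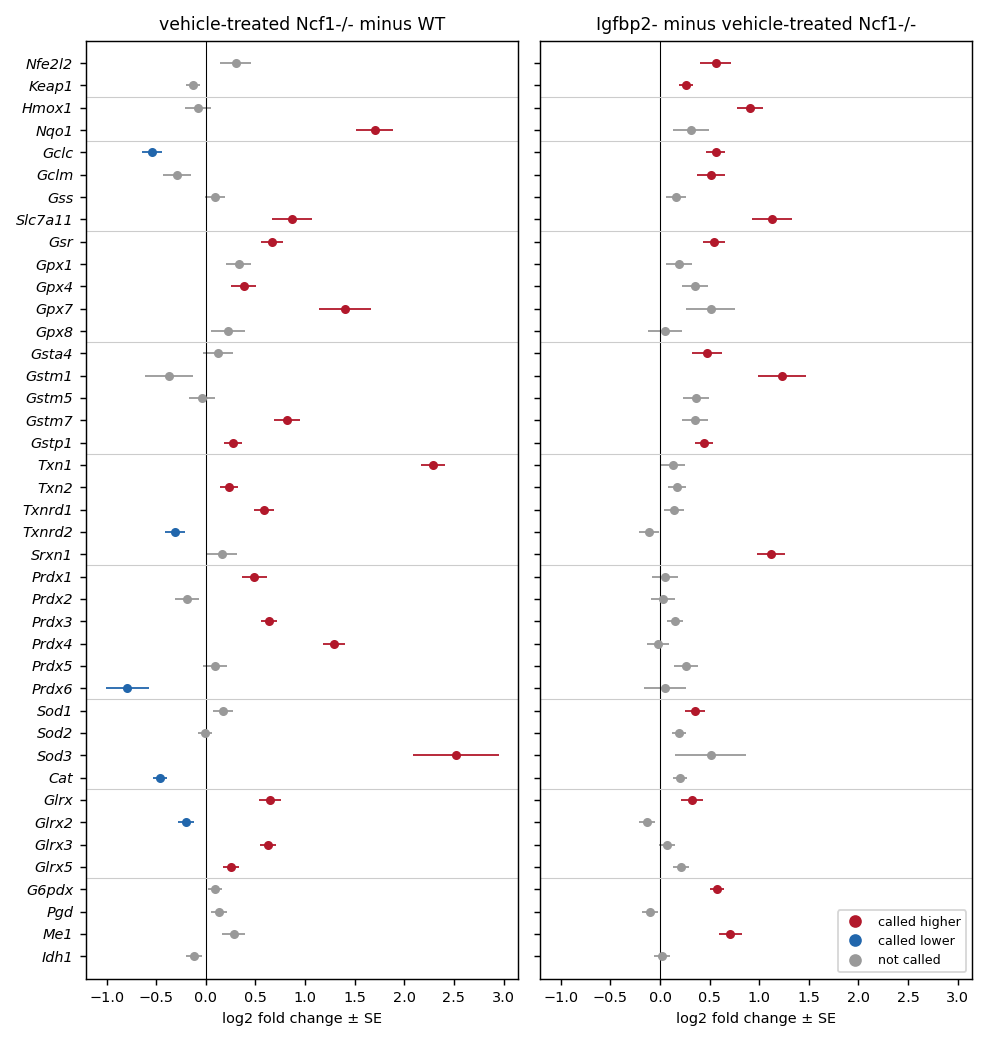
Log2 fold change with its SE for each of the 41 genes between vehicle-treated Ncf1-/- and WT NSCs (left) and between Igfbp2-treated and vehicle-treated Ncf1-/- NSCs (right), in red where called higher, blue where called lower and grey where not called. The left panel holds both directions and reaches 2.52 for Sod3, while all called genes of the right panel lie above 0 and reach 1.23 for Gstm1.

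Genes around the pathway were counted in the same fits. Of all genes tested, 28.9% were called higher and 28.2% lower between the genotypes, and 14.2% and 10.7% between the treatments. In Igfbp2-treated cultures against WT the shares were 31.6% and 30.8%, and on log2(TPM + 1) those between the treatments were 1.0% and 38.6%. Of 8 partners of Nrf2, 1 was called higher and 4 lower between the genotypes, and 2 higher and 0 lower between the treatments. Bach1, which represses antioxidant response elements, was lower in vehicle-treated Ncf1-/- cultures than in WT (-0.58 ± 0.07, edgeR adjusted p = 2.43e-05), as was Mafk (-0.36 ± 0.14, edgeR adjusted p = 0.0417), and so were, by smaller values, Nfe2l1 and Sqstm1, while Rbx1 of the Keap1 ubiquitin ligase was higher (0.33 ± 0.09, edgeR adjusted p = 0.00665). On log2(TPM + 1) the treatment counts were 0 higher and 3 lower. With Igfbp2, Nfe2l1, a relative of Nrf2 that drives proteasome genes, was higher (0.76 ± 0.11, edgeR adjusted p = 0.00103), as was Sqstm1, an autophagy receptor that binds Keap1 (0.25 ± 0.07, edgeR adjusted p = 0.0197), although Sqstm1 reached -0.26 on another scaling. Against WT, 3 of the 8 were higher, in the Igfbp2-treated cultures, led by Maff (1.62 ± 0.36, edgeR adjusted p = 0.00164), and 2 lower.

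Of 14 further Nrf2 targets, 7 were higher and 3 lower between the genotypes, 8 higher and 0 lower between the treatments, and 10 higher and 3 lower in Igfbp2-treated cultures against WT, with medians of 0.34, 0.56 and 1.02. On log2(TPM + 1), 1 was higher and 5 lower between the treatments, against 1.0% and 38.6% of all genes. On library totals the counts were 3 and 1, against 4.13% and 33.5%. Osgin1, an oxidative stress growth inhibitor, rose with Igfbp2 from 0.545 ± 0.219 to 2.52 ± 0.523 CPM (2.21 ± 0.38, edgeR adjusted p = 0.00223), at 8 to 64 counts per library. Abcc1, an exporter of glutathione conjugates, was at 40.3 ± 11.3 CPM in WT, 13.5 ± 1.37 CPM in vehicle-treated and 28.3 ± 4.19 CPM in Igfbp2-treated NSCs, a fall of -1.57 ± 0.19 between the genotypes (edgeR adjusted p = 1.51e-05) and a rise of 1.07 ± 0.19 between the treatments (edgeR adjusted p = 0.00272). Between the genotypes the largest rises were those of Ephx1, an epoxide hydrolase (2.0 ± 0.29, edgeR adjusted p = 7.33e-05), and Cbr3, a carbonyl reductase (1.05 ± 0.13, edgeR adjusted p = 1.65e-05), and Txnip, a thioredoxin inhibitor, fell (-0.74 ± 0.25, edgeR adjusted p = 0.0235). Slc3a2, the partner of xCT, was higher in both comparisons (0.66 ± 0.21, edgeR adjusted p = 0.0168, and 0.68 ± 0.21, edgeR adjusted p = 0.0343). Its genotype call was made under all 6 scalings, and its treatment call under 2 of 6, with values down to 0.2.

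Of 17 further glutathione transferases, 10 could be tested, of which 6 (60%) were higher between the genotypes and 1 (10%) between the treatments. These shares stood against 28.9% and 14.2% of all genes. With TMM 0 were lower in either comparison, also at an unadjusted p under 0.05. On log2(TPM + 1) 0 were higher and 1 lower between the treatments, against 1.0% and 38.6% of all genes. Gstt1 (2.56 ± 0.25, edgeR adjusted p = 2.38e-06) and Gstt3 (1.59 ± 0.17, edgeR adjusted p = 5.08e-06) led between the genotypes. Gstt3 was the one called with Igfbp2 (0.53 ± 0.15, edgeR adjusted p = 0.0259), under 2 of 6 scalings and with values down to 0.04. Of 14 further selenoproteins, 13 could be tested. Between the genotypes 5 (38.5%) were higher and 1 (7.69%) lower, against 28.9% and 28.2% of all genes. Between the treatments 2 (15.4%) were higher, near the 14.2% of all genes. On log2(TPM + 1) 0 were higher and 6 lower between the treatments, against 1.0% and 38.6% of all genes. Selenoh rose (1.79 ± 0.11, edgeR adjusted p = 8.34e-08) and Selenon fell (-1.03 ± 0.08, edgeR adjusted p = 6.47e-07) between the genotypes. Gpx3, plasma glutathione peroxidase, was higher in both comparisons (1.44 ± 0.22, edgeR adjusted p = 0.000106, and 0.76 ± 0.21, edgeR adjusted p = 0.0204). The treatment call of Gpx3 was made under 2 of 6 scalings, with values down to 0.25. Selenon was higher with Igfbp2 (0.62 ± 0.08, edgeR adjusted p = 0.000869).

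Slc7a11 is also a target of Atf4, the factor of the amino acid response. Of 10 genes of that list, 5 (50%) were higher between the genotypes and 1 (10%) between the treatments, against 28.9% and 14.2% of all genes. On log2(TPM + 1) 0 were higher and 3 lower between the treatments, against 1.0% and 38.6%. Asns, asparagine synthetase, was the 1 called in both comparisons (1.24 ± 0.15, edgeR adjusted p = 1.2e-05, and 0.62 ± 0.14, edgeR adjusted p = 0.00882). Its treatment call was made under 2 of 6 scalings, with values down to 0.12. Cth, which makes cysteine for glutathione, was higher between the genotypes (2.27 ± 0.25, edgeR adjusted p = 5.98e-06), and Atf4 itself too (0.40 ± 0.09, edgeR adjusted p = 0.00192). Of 9 NADPH oxidase genes, 4 could be tested and Rac1, a GTPase with many other roles, was the 1 called, lower in vehicle-treated Ncf1-/- cultures than in WT (-0.44 ± 0.11, edgeR adjusted p = 0.00463), where 28.2% of all genes were called lower. Cybb, the catalytic subunit that Ncf1 activates, had at most 1 count in any library, Cyba at most 12 and Ncf1 at most 7, so that the oxidase itself was near the limit of detection.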

How the data were processed

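Total RNA from each culture was depleted of ribosomal RNA and sequenced by the authors, who mapped reads with Bowtie2 and deposited RSEM expected counts, TPM and FPKM per gene (genome build GRCm38 per the processing notes, with tool versions and annotation release not given in the sources used here). The deposited FPKM and the authors' merged TPM table, whose columns are treated as a score because their sums exceed those of TPM, gave no value here, except that the merged table paired gene identifiers with symbols. Whether reads were counted by strand is not stated. Replicates are cultures from separate pups per the study's methods, which was not checked beyond the Y-linked and Xist values given above.

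Expected counts, rounded, were filtered with filterByExpr (15706 of 45792 genes, 99.9% of counts), TMM-scaled and tested with edgeR 4.0.16 (quasi-likelihood, R 4.3.3) in 1 fit of all 12 libraries with Benjamini-Hochberg adjustment over all genes tested. SEs were derived from the quasi-likelihood F statistic, and tests were checked on simulated data. Alternatives used DESeq2 1.42.0, limma 3.58.1 on log2(TPM + 1) and log2(TPM + 0.1), TPM rescaled without 5 structural RNAs, library totals, no filter, the 2 groups compared alone, each library left out, and the authors' one-way ANOVA with Tukey's test on TPM.

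The pairing of cultures (1 with 5, 2 with 6, 3 with 7 and 4 with 8) comes from the study's sheet. Deviations from group means correlated at 0.136, -0.0917, -0.138 and -0.0699 within pairs and from -0.407 to 0.443 otherwise. Members, lists and tests were chosen with earlier results of these data known. Values by library are given for 9 genes of the Nrf2 pathway and the 5 largest called rises and falls of each comparison, and up to 2 rises and 2 falls were named from each other list. G6pdx values, Slc3a2, Atf4 and further genes of those lists were added after their values were seen. Sequence overlap was taken as 50-base words of GENCODE M21 transcripts, and gene positions from the same release.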

Additional observations from a re-analysis of the deposited data

Results flagged for a closer look

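In groups of 4 libraries, 8 of 123 combinations of gene and group held a library whose gap to its nearest neighbour exceeded Dixon's critical value for the share of the group's range, which chance passes in about 1 of 20 groups. Among the vehicle-treated Ncf1-/- libraries, library 4 had 44.5 CPM of Hmox1 (others 41.8 to 42) and 33.3 CPM of Slc7a11 (others 19.7 to 21.9), and library 2 had 255 CPM of Prdx1 (others 275 to 278). Among the Igfbp2-treated libraries, library 7 had 63.7 CPM of Slc7a11 (others 49.1 to 50) and library 5 had 398 CPM of Txn1 (others 335 to 345). In WT, library 12 had 86.6 CPM of Gclm (others 55.3 to 57.1), and library 11 had 25.8 CPM of Gpx8 (others 15.4 to 16.4) and 84.8 CPM of Txn1 (others 57.9 to 61.8). Causes were not tested.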

How the results depend on the processing

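The genotype count of 22 called members was 11 under the authors' own test on TPM and 17 to 23 with a library left out, and 17 members were called in all 12 such fits. The treatment count of 15 was 9 on log2(TPM + 0.1), 2 higher and 7 lower, against 1.09% and 39.3% of all genes. It was 6 on rescaled TPM, 6 higher and 0 lower, against 4.43% and 15.3%. Under the authors' own test it was 2 (Prdx2 and Prdx4, both lower), against 0.23% higher and 7.48% lower of all genes. With a library left out it was 9 to 18, with 9 in the fits without vehicle-treated library 2 or Igfbp2-treated library 5 or 8. The count of 33 between Igfbp2-treated Ncf1-/- and WT NSCs was 20 on log2(TPM + 1), 16 on log2(TPM + 0.1), 11 under the authors' own test and 30 to 33 with a library left out. With the replicate block the treatment count was 18, against 18 without the block in the same 2 groups, and the block removed none of the 15. The share of the 41 genes was 0.632%, 0.64% and 0.693% without structural RNAs and 0.365%, 0.445% and 0.452% of expected counts in WT, vehicle-treated and Igfbp2-treated NSCs, and with a library left out 0.215% to 0.245%, 0.255% to 0.266% and 0.221% to 0.236% of TPM.

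Signs of results called in the reported fit or under the alternative turned as follows, on log2(TPM + 1), log2(TPM + 0.1) and the authors' own test in that order unless named. Between the genotypes Glrx2 was at 0.15, 0.15 and 0.15. Between the treatments Keap1 was at -0.21, -0.22 and -0.2, and at -0.01 on library totals, Gsta4 at -0.03 in each, Gstp1 at -0.07 in each, Sod1 at -0.16 in each, Prdx2 at -0.49 in each, and Glrx at -0.16, -0.17 and -0.16. On both log2 TPM scales Prdx1 was at -0.48 and Glrx3 at -0.41, and Idh1 was at -0.44 and -0.45, with -0.26 on library totals. Between Igfbp2-treated Ncf1-/- and WT NSCs Keap1 was at -0.32 on log2(TPM + 1), Gss at -0.15, -0.18 and -0.14, with -0.03 on rescaled TPM, Txn2 at -0.01, -0.01 and -0.0, Prdx5 at -0.12 in each, Sod2 at -0.23, -0.24 and -0.22, with -0.1 on rescaled TPM, and Pgd at -0.4 on log2(TPM + 1) and -0.26 on rescaled TPM. A further 164 sign changes were between values called in neither, such as Nqo1 between the treatments, at -0.16 on log2(TPM + 1). The rescaling of TPM without 5 RNAs changes TPM values by construction, and why the scalings differed was not tested. Depth limited Sod3, Ncf1, Cyba and Cybb.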
